A study of Mus musculus with 10 samples.

Results

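The 8 genes Wdfy1, Rab4a, Ide, Btaf1, Fgfbp3, Entpd4, Cyfip2 and Paip1 were followed in mouse heart as a set of genes described as variable between C57BL/6 substrains and located outside chromosome 17. They were taken by symbol through the GENCODE annotation of GRCm39, and each symbol matched 1 of the 78298 genes in the deposited table. All 8 were among the 16700 genes that passed the filter on low counts. The members were chosen by symbol with their counts in the same genotype comparison already known, so the difference of each between the groups is given as a description, without a p-value.

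Whole hearts of female mice were measured by bulk RNA sequencing, which gives 1 summed transcript level per gene and heart. All mice were labelled as C57BL/6J background and had received 1 intraperitoneal dose of doxorubicin, 30 mg/kg, an anthracycline that damages heart muscle, with hearts taken 72 h later. One group of 5 libraries was labelled wild type (WT), and another of 5 carried the label of a germline p38δ knockout (KO). p38δ is a kinase that responds to stress and is encoded by Mapk13, and no untreated heart was analysed here. The WT-labelled titles start with DOXF and the KO-labelled ones with S, so a cohort, vendor or colony that went with the titles and the genotype cannot be told apart. The labels give no age, do not say whether the groups were littermates and do not name a substrain beyond C57BL/6J. They also do not state that each library came from a separate animal, so p-values measure the spread between these libraries.

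C57BL/6 mice have been bred apart in several colonies for decades, and the J and N lines now differ by small variants, deletions and changes in copy number. The best known is a deletion of exons in the mitochondrial gene Nnt that C57BL/6J carries and C57BL/6N does not. Cyfip2 carries a coding variant in C57BL/6N, and the colony C57BL/6JOlaHsd lacks Mmrn1. A knockout made in cells of one substrain and kept on another can differ from its controls at loci far from the target, and whether that holds for these mice was not tested. Transcript levels alone do not give the allele or the copy number, so the substrain description of the 8 genes was not checked by these counts.

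The pair of sequences below shows why the level of Entpd4 cannot be separated from that of its copy. Entpd4 encodes a nucleoside diphosphatase of the Golgi and lysosome membranes, and Entpd4b lies further along the same chromosome, 14, on the same strand. The lines give the first 90 bases of the 613-codon open reading frame in the longest matched transcript of each gene, bases 217 to 306, 5′ to 3′, read from GENCODE transcripts of GRCm39. Capitals mark the start codon.
Entpd4: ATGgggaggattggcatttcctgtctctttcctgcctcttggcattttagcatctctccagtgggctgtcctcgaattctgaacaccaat
Entpd4b: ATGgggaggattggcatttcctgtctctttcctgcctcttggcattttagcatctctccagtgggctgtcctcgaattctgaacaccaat
The lines are identical. In the 6 transcript pairs of equal length, from 418 to 3589 bases, 0 bases differed. A read inside these transcripts could have come from either gene, and the authors' counting divided such reads by estimation.

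RefSeq held promoter windows for 5 of the 8 members, Ide, Btaf1, Fgfbp3, Cyfip2 and Paip1, on build GRCm38.p6, as 250 bases before and 50 after the annotated start. Wdfy1, Rab4a and Entpd4 had no entry. Those of Fgfbp3 and Btaf1 are shown because these neighbours point away from each other on chromosome 19 and both had lower means in the KO-labelled hearts, and that of Paip1 because its start overlaps the start of Nnt. The sequences are written 5′ to 3′ on the strand of the gene. Capitals mark the CCAAT box, the GC box, which reads GGGCGG, or the TATA box, searched as TATAAA, on either strand.
Fgfbp3, chr19:36919550-36919849, minus strand: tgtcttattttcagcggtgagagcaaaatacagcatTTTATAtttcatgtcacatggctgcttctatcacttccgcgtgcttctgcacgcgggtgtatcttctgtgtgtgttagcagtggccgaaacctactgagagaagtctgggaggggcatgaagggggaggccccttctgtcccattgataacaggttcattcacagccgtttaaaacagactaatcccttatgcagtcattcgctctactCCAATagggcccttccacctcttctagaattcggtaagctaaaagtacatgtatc
Btaf1, chr19:36925829-36926128, plus strand: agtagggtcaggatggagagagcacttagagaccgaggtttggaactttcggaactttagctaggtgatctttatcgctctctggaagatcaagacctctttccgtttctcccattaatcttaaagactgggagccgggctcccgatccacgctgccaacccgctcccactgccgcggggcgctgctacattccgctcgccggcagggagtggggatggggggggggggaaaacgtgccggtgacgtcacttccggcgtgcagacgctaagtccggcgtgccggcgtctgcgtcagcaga
Paip1, chr13:119428350-119428649, plus strand: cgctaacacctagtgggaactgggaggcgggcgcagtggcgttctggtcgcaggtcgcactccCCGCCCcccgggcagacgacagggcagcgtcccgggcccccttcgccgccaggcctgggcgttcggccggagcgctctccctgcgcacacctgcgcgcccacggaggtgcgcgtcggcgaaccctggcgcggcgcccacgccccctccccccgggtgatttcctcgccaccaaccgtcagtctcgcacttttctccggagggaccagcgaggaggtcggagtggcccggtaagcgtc
The Fgfbp3 window held 1 TATA box and 1 CCAAT match, with 46.7% G and C and 9 CpG. The Btaf1 window held none of the 3 motifs, with 60.0% G and C and 25 CpG, and the Paip1 window shown held 1 GC box, with 73.3% G and C and 38 CpG. A window at the second RefSeq start of Paip1, not shown, held 4 GC boxes, with 81.0% G and C and 49 CpG. The Ide window held 0 CpG, and it is not shown because its start is doubtful. Among 32851 RefSeq promoters of this length, 37.4% held CCAAT, 35.7% the GC box and 13.6% the TATA box, and the medians were 52.7% G and C and 7 CpG. A match describes letters, not a used site, and a window with no match says only that the letters are absent from it.

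Library totals ranged from 21403189 to 40627138 counts. The targeted gene did not check the labels: the WT-labelled libraries 1 to 5 held 292, 5, 2, 1 and 4 counts of Mapk13, and the KO-labelled ones 12, 10, 10, 15 and 9. Groups are therefore named as labelled. The heart label was checked on 9 ventricular muscle markers, of which none was at 0 in all libraries and whose summed level was 18475 to 43092 CPM in the WT-labelled and 24617 to 55849 CPM in the KO-labelled libraries, where CPM is the count scaled to library size. WT-labelled library 1 stood apart, with the lowest ventricular sum and with 1444 CPM of 7 atrial markers and 1053 CPM of 8 airway markers, against at most 331 and 90.3 CPM in the other 4 of its group. KO-labelled library 4 had the highest ventricular sum. The sum of 5 fibroblast markers also went with the groups without overlap, at 744 to 1450 CPM in the WT-labelled and 656 to 708 CPM in the KO-labelled libraries, and its part in the members' values was not tested. Of the 16700 tested genes, 59 passed the edgeR quasi-likelihood test at an adjusted p of 0.05.

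Wdfy1 and Rab4a, which act at early endosomes, were the members with higher levels in the KO-labelled hearts in every library. Ide and Btaf1, both on chromosome 19, were lower in every KO-labelled library than in any WT-labelled one. Groups that did not overlap were found for 1.78% of all tested genes, 0.880% with the KO-labelled group higher and 0.898% with it lower. The other 4 members overlapped between the groups. At the adjusted p threshold 2 of 8 members passed, both higher. Among all tested genes 0.353% passed (0.240% higher), and among the 15858 outside chromosome 17 it was 0.0883%. Without WT-labelled library 1, 4 of 8 members passed, against 0.446% of the 16829 genes tested in that fit. Since the members were picked with this comparison in view, nothing is read from these counts.

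**Figure D1:**
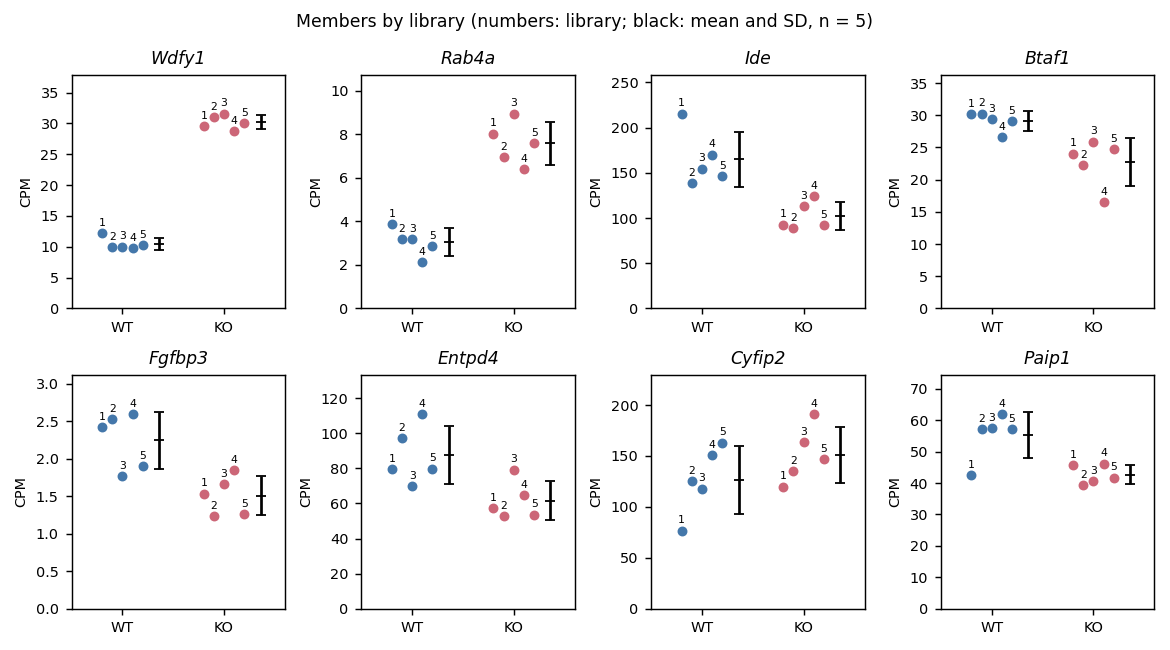
CPM of each member in every library (points, numbered by library) for the 5 WT-labelled and 5 KO-labelled hearts, with the group mean and SD in black and each vertical axis starting at 0. The groups are apart for Wdfy1, Rab4a, Ide and Btaf1 and overlap for the other 4 members.

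Wdfy1 (ENSMUSG00000073643, chromosome 1, 79679017 to 79753860, minus strand, GRCm39) encodes a protein that binds a phosphoinositide of early endosomes and helps Toll-like receptors recruit their adaptor. The WT-labelled libraries 1 to 5 held 12.3, 9.95, 10.04, 9.77 and 10.3 CPM, and the KO-labelled libraries 29.5, 31.0, 31.6, 28.7 and 30.0 CPM. The lowest KO-labelled heart stood 16.5 CPM above the highest WT-labelled one, and the libraries within each group lay close together apart from WT-labelled library 1. Group means were 10.5 ± 1.03 and 30.2 ± 1.15 CPM (SD, n = 5 each), a ratio of 2.89. The fitted log2 fold change, KO-labelled over WT-labelled, was 1.53 ± 0.08 (SE).

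The genes beside Wdfy1 had smaller differences. Serpine2, a protease inhibitor gene 9.46 kb away, stood at 26.1 ± 4.76 against 25.5 ± 3.88 CPM. The potassium channel subunit gene Kcne4, 881 kb away on the other side, stood at 2.84 ± 0.72 against 2.44 ± 0.40 CPM. Mrpl44, a mitochondrial ribosomal protein gene that overlaps Wdfy1 by 126 bases, stood at 22.4 ± 4.27 against 22.4 ± 2.08 CPM. Within 1 Mb of Wdfy1, 0 of 9 other tested genes passed by edgeR, and 0 had an unadjusted p under 0.05, with a median log2 fold change of 0.00. Their log2 fold changes ran from -0.67 to 0.68, all under the 1.53 of Wdfy1. Of all tested genes 0.353% passed, so 0 calls in a window of this size, here or at the other members, say little.

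Rab4a (ENSMUSG00000019478, chromosome 8, 124532545 to 124568842, plus strand) encodes a small GTPase that returns receptors from early endosomes to the cell surface by the fast route. WT-labelled libraries 1 to 5 held 3.89, 3.17, 3.20, 2.12 and 2.86 CPM, from 44 to 177 counts, and the KO-labelled libraries 8.03, 6.94, 8.95, 6.39 and 7.58 CPM, from 188 to 253 counts. All 5 KO-labelled hearts were above all 5 others. The means were 3.05 ± 0.64 and 7.58 ± 0.99 CPM, a ratio of 2.49, with a log2 fold change of 1.303 ± 0.16 (SE).

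Rab4a shares 1289 bases of its gene body with Ccsap on the opposite strand, which encodes a protein of centrioles and spindles. Strand use in counting is not given in the sources used here, so reads of the overlap could belong to either gene. Ccsap itself was low, at 0.65 ± 0.12 against 0.82 ± 0.19 CPM, and did not pass (adjusted p = 0.795 by edgeR). Its total was 114 counts in each group, against 559 and 1039 for Rab4a. A noncoding gene on the strand of Ccsap, 2810455O05Rik, overlaps Rab4a by 2233 bases, so its reads could mix with those of Rab4a too. It stood at 0.28 ± 0.10 against 0.40 ± 0.09 CPM (adjusted p = 0.740 by edgeR). On the other sides, Rhou, which encodes a small GTPase, stood at 9.33 ± 5.23 against 5.83 ± 0.76 CPM (adjusted p = 0.714 by edgeR), and the skeletal actin gene Acta1 at 46.5 ± 89.3 against 9.61 ± 6.62 CPM (adjusted p = 0.744). Of 44 tested genes within 1 Mb of Rab4a, 0 passed by edgeR and 2 had an unadjusted p under 0.05.

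Fgfbp3, Btaf1 and Ide sit on chromosome 19 in that order, and all 3 had lower means in the KO-labelled hearts. Ide (ENSMUSG00000056999, 37245688 to 37340729, minus strand) encodes the metalloprotease that degrades insulin and other small peptides. The WT-labelled libraries held 216, 139, 154.7, 170 and 147 CPM, and the KO-labelled libraries 92.8, 89.1, 113, 124 and 92.6 CPM. The highest KO-labelled heart stood 14.6 CPM below the lowest WT-labelled one. Means were 165 ± 30.5 and 102 ± 15.5 CPM, so the KO-labelled mean was 62.0% of the other, with a log2 fold change of -0.69 ± 0.14 (SE). The highest value of each group came from WT-labelled library 1 and KO-labelled library 4, both of which stood apart. Without both, the log2 fold change was -0.65, close to the value with them.

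One annotated Ide transcript contains a processed copy of the ribosomal protein gene Rpl10, which could draw reads of Rpl10 into Ide. That copy, Rpl10-ps6, spans 642 bases inside the Ide gene body on the same strand, and the transcript matched Rpl10 at 99.9% over 745 bases. Rpl10 stood at 261 ± 29.3 against 239 ± 33.4 CPM (adjusted p = 0.838 by edgeR, n = 5 each). Rpl10-ps6 held 99 counts in the WT-labelled and 11 in the KO-labelled libraries, against 29455 and 14188 counts of Ide. How many Ide counts came from the copied stretch cannot be read from counts per gene and was not tested.

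Btaf1 (ENSMUSG00000040565, 36903472 to 36991455, plus strand) encodes an ATPase that removes the TATA-binding protein from DNA. Levels in the WT-labelled libraries were 30.2, 30.3, 29.4, 26.6 and 29.1 CPM, and those in the KO-labelled libraries 24.0, 22.3, 25.9, 16.5 and 24.8 CPM. The groups were apart by 0.666 CPM, and KO-labelled library 4 lay well under the rest of its group. Means were 29.1 ± 1.501 and 22.7 ± 3.72 CPM, or 78.0%, with a log2 fold change of -0.36 ± 0.11 (SE). Leaving out KO-labelled library 4 moved it to -0.26.

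Fgfbp3 (ENSMUSG00000047632, 36894950 to 36897147, minus strand) encodes a secreted protein that binds fibroblast growth factors and releases them from the matrix. It was the member with the fewest counts, 394 in the WT-labelled and 208 in the KO-labelled libraries. In the WT-labelled libraries it stood at 2.42, 2.53, 1.77, 2.60 and 1.90 CPM, and in the KO-labelled libraries at 1.53, 1.23, 1.67, 1.85 and 1.26 CPM. The ranges crossed only between the lowest WT-labelled heart and the highest KO-labelled one. Means were 2.24 ± 0.38 and 1.51 ± 0.26 CPM, or 67.2%, with a log2 fold change of -0.57 ± 0.19 (SE).

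None of the coding genes between and beside these 3 passed by edgeR. Tnks2, a poly-ADP-ribosyl transferase gene 24.0 kb from Fgfbp3, stood at 97.8 ± 4.28 against 97.3 ± 4.31 CPM. Cpeb3, which encodes an mRNA-binding regulator of translation and ends 5.29 kb past Btaf1 on the opposite strand, stood at 107 ± 27.7 against 92.1 ± 18.3 CPM with a log2 fold change of -0.22 (adjusted p = 0.834 by edgeR). Marchf5, which encodes a ubiquitin ligase of mitochondria and lies between Cpeb3 and Ide, stood at 46.7 ± 3.52 against 47.8 ± 3.80 CPM. Past Ide, the mitotic kinesin gene Kif11 stood at 0.94 ± 0.51 against 0.80 ± 0.33 CPM. The log2 fold change was -0.01 ± 0.06 (SE) for Tnks2 and 0.03 ± 0.08 for Marchf5, against -0.36 to -0.69 for the 3 members. Within 1 Mb, 0 of 18 tested neighbours of Btaf1 and 0 of 15 of Ide passed by edgeR, counts that leave the members out, with 1 and 0 at an unadjusted p under 0.05. The share among all tested genes was 0.353%. That 1 neighbour of Btaf1 was Ankrd1, at 754 ± 148 against 550 ± 97.1 CPM, a log2 fold change of -0.46 (adjusted p = 0.666 by edgeR).

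**Figure D2:**
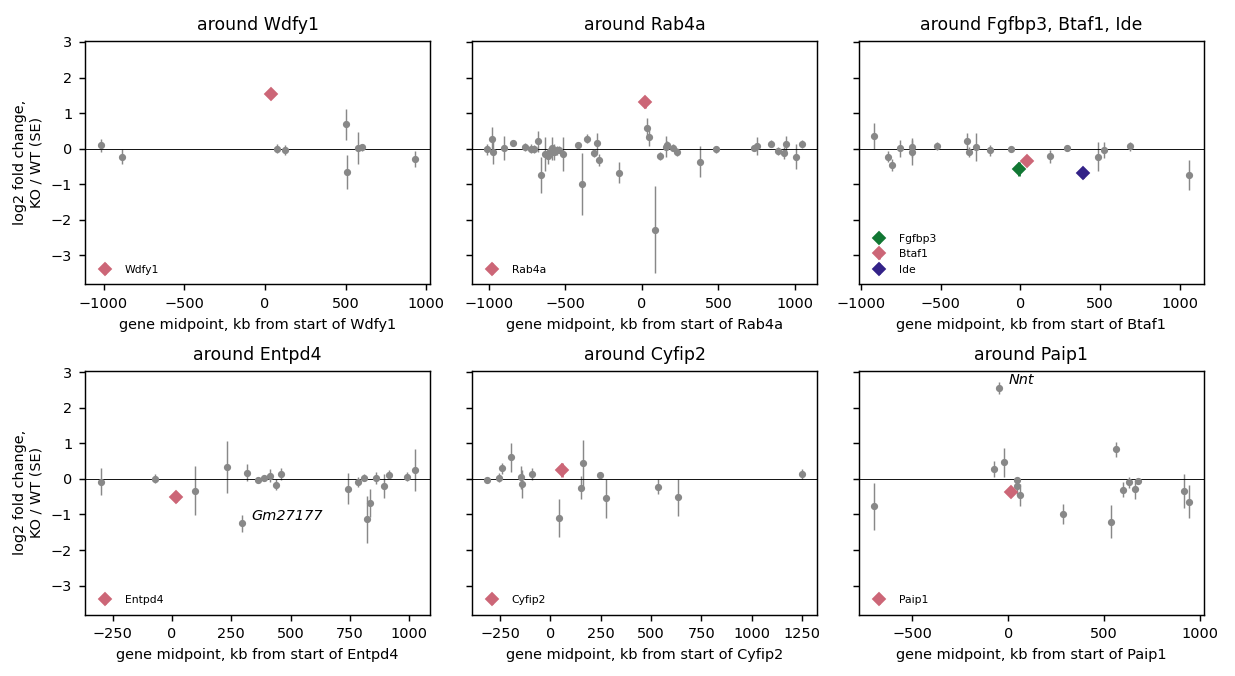
Fitted log2 fold change, KO-labelled over WT-labelled, of the members (coloured diamonds) and the other tested genes within 1 Mb of the member named on the axis (grey), with bars of 1 SE, against the distance of the gene midpoint from the lower end coordinate of that member, in kb. Of the 126 neighbours only Nnt, beside Paip1, and Gm27177, in the Entpd4 region, passed by edgeR.

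Entpd4 (ENSMUSG00000095463, chromosome 14, 69574623 to 69604719, plus strand) had a lower mean in the KO-labelled hearts with overlapping groups. In the WT-labelled libraries Entpd4 stood at 79.6, 97.3, 69.8, 111 and 79.9 CPM, and in the KO-labelled libraries at 57.5, 52.9, 79.3, 65.0 and 53.7 CPM. Means were 87.6 ± 16.5 and 61.7 ± 11.0 CPM, or 70.4%, with a log2 fold change of -0.51 ± 0.14 (SE). Since Entpd4 and Entpd4b are identical over the matched transcripts, the division between them is part of this value. Gm16867, on the opposite strand, overlaps Entpd4 by 3998 bases and shares 1200 bases at 100% with an Entpd4 transcript. It held 191 counts in the WT-labelled and 135 in the KO-labelled libraries, against 15093 and 8426 of Entpd4.

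The counts given to Entpd4b (69792873 to 69822969) swung widely. They came to 13.1, 6.21, 34.0, 2.55 and 40.1 CPM in the WT-labelled and 30.0, 26.3, 4.05, 35.2 and 25.0 CPM in the KO-labelled libraries. Entpd4b took as little as 2.24% of the pair in WT-labelled library 4 and as much as 35.1% in KO-labelled library 4. Where Entpd4 was high in its group, as in WT-labelled library 4 and KO-labelled library 3, Entpd4b was near its lowest.

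Summing the pair removed that division. The sum was 92.8, 103, 104, 114 and 120 CPM in the WT-labelled and 87.5, 79.1, 83.4, 100.2 and 78.6 CPM in the KO-labelled libraries. The groups overlapped only through WT-labelled library 1 and KO-labelled library 4. Means were 107 ± 10.5 and 85.8 ± 8.81 CPM, or 80.4%, and the log2 fold change of the summed counts was -0.32 ± 0.09 (SE) against -0.51 for Entpd4 alone. Slc25a37, which encodes the mitochondrial iron importer and precedes Entpd4, stood at 24.5 ± 4.002 against 24.7 ± 3.81 CPM.

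Gm27177, a long noncoding RNA on the opposite strand (69819613 to 69920735), was the only neighbour of Entpd4 that passed. It held 8.43, 4.83, 8.86, 6.59 and 7.00 CPM in the WT-labelled and 1.93, 3.77, 2.76, 2.34 and 4.19 CPM in the KO-labelled libraries, and the groups did not overlap. It fell with a log2 fold change of -1.25 ± 0.23 (SE; adjusted p = 0.0497 by edgeR, n = 5 each). Gm27177 shares 1139 bases at 99.9% with an Entpd4 transcript, so its counts are not independent of the pair. The call ended when any 1 of WT-labelled libraries 1, 3, 4 and 5 or KO-labelled libraries 1 to 4 was left out (adjusted p from 0.0706 to 0.180), it held in 5 of 20 alternatives, and over all of them the adjusted p ran from 1.24e-04 to 0.205.

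**Figure D3:**
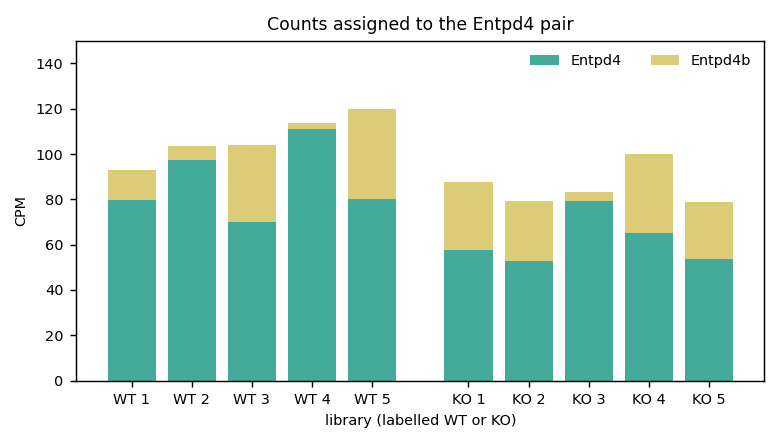
CPM assigned to Entpd4 (green) and to its identical copy Entpd4b (yellow), stacked for each library by its label, WT or KO, with the axis from 0. The split moves between libraries of the same group, while the stacked total runs from 92.8 to 120 CPM in the WT-labelled and from 78.6 to 100.2 CPM in the KO-labelled hearts.

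Cyfip2 (ENSMUSG00000020340, chromosome 11, 46084550 to 46203686, minus strand) encodes a subunit of the WAVE complex, which links the GTPase Rac to branching of actin filaments. The substrain difference known at this gene is in its protein, and counts per gene do not show it. Its levels were 76.8, 125, 118, 151 and 163 CPM in the WT-labelled libraries, and the KO-labelled libraries held 120, 135, 164, 191 and 147 CPM. The groups overlapped between 120 and 163 CPM. Means were 127 ± 33.4 and 151 ± 27.5 CPM, with a log2 fold change of 0.26 ± 0.19 (SE) and a 95% interval from -0.12 to 0.63.

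The lowest and highest Cyfip2 values came from WT-labelled library 1 and KO-labelled library 4, the libraries with the lowest and the highest ventricular marker sum, 18475 and 55849 CPM. Without both libraries the log2 fold change was 0.03. Leaving out the lowest WT-labelled and the highest KO-labelled value had to lower the difference, so nothing is read from the drop. The part of heart muscle content in the Cyfip2 values was not tested, and in whole-heart RNA fewer cells of a type and less RNA per cell cannot be told apart. Fndc9, which overlaps Cyfip2 by 4418 bases on the opposite strand, stood at 1.38 ± 1.45 against 0.66 ± 0.16 CPM (adjusted p = 0.722 by edgeR). The flanking metalloprotease gene Adam19 stood at 35.6 ± 4.28 against 38.9 ± 11.1 CPM. Of 15 tested neighbours 0 passed by edgeR and 0 had an unadjusted p under 0.05.

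Paip1 (ENSMUSG00000025451, chromosome 13, 119564882 to 119594754, plus strand) encodes a partner of the poly(A)-binding protein that promotes translation. The WT-labelled libraries held 42.5, 57.2, 57.6, 62.0 and 57.04 CPM, and the KO-labelled libraries 45.6, 39.2, 40.5, 46.2 and 41.7 CPM. WT-labelled library 1 lay among the KO-labelled hearts, and the other 4 lay above all of them. Means were 55.3 ± 7.44 and 42.7 ± 3.10 CPM, or 77.2%, with a log2 fold change of -0.37 ± 0.10 (SE). Without WT-labelled library 1 it was -0.45.

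Nnt, the transhydrogenase gene with the known C57BL/6J deletion, starts head to head with Paip1 on the opposite strand, and the gene bodies overlap by 1499 bases. Its level went the other way. Nnt held 30.4, 52.5, 50.4, 54.4 and 61.3 CPM in the WT-labelled and 286, 294, 319, 313 and 250.5 CPM in the KO-labelled libraries, with no overlap. It rose from 49.8 ± 11.6 to 292 ± 27.0 CPM, a log2 fold change of 2.55 ± 0.17 (SE; adjusted p = 6.97e-06 by edgeR, n = 5 each). WT-labelled library 1 was lowest in its group for Nnt as for Paip1. The transcripts share 317 bases, so some reads of the overlap could have been counted for either gene.

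The next gene on the far side of Paip1, 4833420G17Rik at 4.51 kb, stood at 22.0 ± 1.33 against 21.6 ± 0.81 CPM, a log2 fold change of -0.02 ± 0.06 (SE). Fgf10, a growth factor gene on the Nnt side, stood at 0.71 ± 0.91 against 0.43 ± 0.13 CPM (adjusted p = 0.824 by edgeR). Of 16 tested neighbours 1 passed, Nnt, and 4 had an unadjusted p under 0.05, against 1145 of all 16700 tested genes. The median log2 fold change of the 16 neighbours was -0.25. Besides Nnt the 4 held Tmem267, which stood at 15.6 ± 3.12 against 7.90 ± 3.36 CPM (adjusted p = 0.534 by edgeR). They also held Ccl28 and Gm53794, with log2 fold changes of -1.21 and 0.83 (adjusted p = 0.674 and 0.314 by edgeR). Counted across all windows with each gene once, 2 of 126 neighbours passed, or 1.59%, against 0.353% of all tested genes. All windows lie outside chromosome 17, where 0.0883% of 15858 tested genes passed. Nnt overlaps Paip1 and is itself a known substrain gene, and Gm27177 shares sequence with Entpd4, so nothing is read from the share. With windows of 5 Mb the same 2 genes were the ones that passed among 443, or 0.451%.

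Levels between members can be set side by side only per length of exon, and since some differ between the groups, the order is given for each group as the range over its 5 libraries in CPM per kb. In the WT-labelled libraries Ide ranged from 12.5 to 19.4, Paip1 from 8.17 to 11.9, Cyfip2 from 6.30 to 13.4 and Entpd4 from 8.65 to 13.8. The range of Ide lay above that of Paip1 and overlapped those of Cyfip2 and Entpd4. Those of Paip1, Cyfip2 and Entpd4 overlapped each other. In both groups the Entpd4 range includes its division from Entpd4b. In the KO-labelled libraries Cyfip2 ranged from 9.83 to 15.7, Ide from 8.02 to 11.2, Paip1 from 7.54 to 8.88 and Entpd4 from 6.55 to 9.83, and neighbours in this order overlapped.

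Among the lower 4 members, Wdfy1 and Btaf1 changed order between the groups, as did Rab4a and Fgfbp3. These changes restate the group differences with which the members were chosen. Wdfy1 ranged from 1.29 to 1.63 CPM per kb and Btaf1 from 2.26 to 2.57 in the WT-labelled libraries, but Wdfy1 from 3.81 to 4.19 and Btaf1 from 1.40 to 2.20 in the KO-labelled ones. Rab4a ranged from 0.37 to 0.68 and Fgfbp3 from 0.92 to 1.36 CPM per kb in the WT-labelled libraries, but Rab4a from 1.11 to 1.55 and Fgfbp3 from 0.64 to 0.96 in the KO-labelled ones. Neither pair overlapped within a group. Across the pairs, Wdfy1 overlapped Fgfbp3 in the WT-labelled libraries and Btaf1 overlapped Rab4a in the KO-labelled ones, so no order of all 4 is given.

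With group means removed, members could be compared between libraries of one group, a measure that the choice of members did not fix. The deviations below are in log2(CPM + 1). WT-labelled library 1 was high for Ide by 0.40, for Rab4a by 0.29 and for Wdfy1 by 0.22, and low for Cyfip2 by -0.67 and for Paip1 by -0.36. KO-labelled library 4 was low for Btaf1 by -0.42 and high for Cyfip2 and Ide. The members thus did not move together as 1 block within a group.

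Rab4a and Btaf1 deviated to the same side of their group mean in 9 of 10 libraries, as did Entpd4 and Cyfip2. On chromosome 19, Ide and Fgfbp3 did so in 8 of 10, and Ide and Btaf1, which lies between them, in 3 of 10. Wdfy1 and Paip1 did so in 1 of 10. The Entpd4 deviations include its division from Entpd4b. In WT-labelled library 3 Entpd4 deviated by -0.30, where the pair summed to 104 CPM against a group mean of 107 CPM. The 28 pairs share libraries and depth, and these counts are given as a description.

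**Figure D4:**
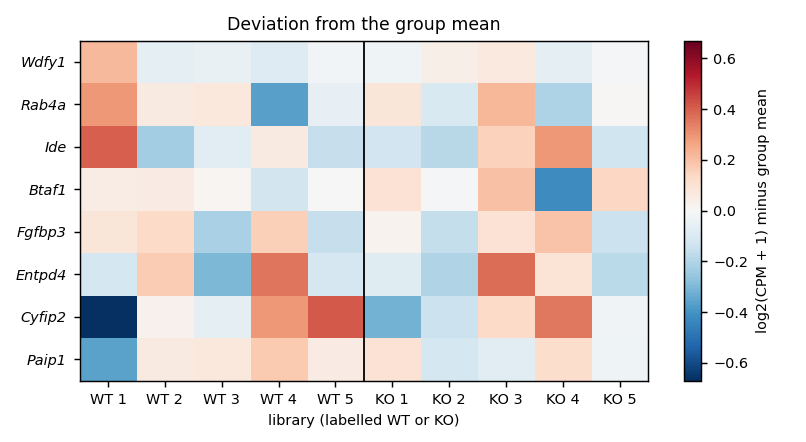
Deviation of each member from its own group mean in each library, in log2(CPM + 1), with red above and blue below the mean and a black line between the WT-labelled and KO-labelled libraries. The strongest cell is Cyfip2 in WT-labelled library 1 at -0.67, where Ide is at 0.40.

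The genes nearest to each member in profile were those with the smallest mean absolute difference of centred log2(CPM + 1) over the 10 libraries. For Wdfy1 these were Ermardl2, at 0.05, and the glyoxalase gene Glo1, at 0.12, both on chromosome 17, where both rose in the KO-labelled hearts (adjusted p = 5.91e-06 and 2.12e-06 by edgeR). For Rab4a they were the predicted gene Gm14292 on chromosome 2 and Tagap, a T-cell GTPase-activating protein gene on chromosome 17, at 0.14 each. Both passed by edgeR (adjusted p = 7.25e-05 and 0.00182). Gm14292 rose from 0.08 ± 0.05 to 1.35 ± 0.21 CPM, a log2 fold change of 4.10 against 1.303 for Rab4a, and the pseudocount of 1 shrinks the change of so low a gene on this scale. The distance also holds the group difference with which the members were chosen. Cyfip2 was nearest to Ryr2, the calcium release channel of heart muscle, at 0.07, and to the scaffold gene Homer2, at 0.07. Neither passed by edgeR (adjusted p = 0.910 and 0.811), with Ryr2 at 1049 ± 260.3 against 1150 ± 236 CPM.

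For the members with lower means the nearest profiles lay on several chromosomes, among them chromosome 17. Ide was nearest to Pdzrn4 at 0.09 and Enpp5 at 0.11, Btaf1 to Gm70661 and Mturn at 0.08 each, and Fgfbp3 to Tpgs1 at 0.08 and to the small nucleolar ribonucleoprotein gene Fbl at 0.09. Entpd4 was nearest to Gm48483 at 0.12 and to another member, Fgfbp3, at 0.14. The Entpd4 profile also includes its division from Entpd4b. Paip1 was nearest to the membrane scaffold gene Flot1 at 0.07 and to Gm7591 at 0.09. Enpp5 and Flot1 lie on chromosome 17, and of them Enpp5 passed by edgeR (adjusted p = 0.0358) and Flot1 did not (adjusted p = 0.616).

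The partners of each member in its own pathway were then counted, from 9 lists that follow the roles of the 8 members. In each list 0 genes passed by edgeR in either direction. Of all tested genes 0.353% passed, and 0.0883% of those outside chromosome 17. Lists of this size would hold few or no calls at such shares, so nothing is read from the 0. Wdfy1 was set beside 21 genes of Toll-like receptor adaptor signalling, of which 8 lay above and 13 below 0 with a median log2 fold change of -0.03. The smallest p there belonged to the interferon regulator Irf7, at 18.1 ± 8.85 against 10.5 ± 1.68 CPM (adjusted p = 0.616 by edgeR), followed by the kinase gene Ripk1 and the receptor gene Tlr4, with log2 fold changes of -0.32 and -0.18. Its other list, 18 endosomal phosphoinositide and FYVE proteins, had a median of -0.03, and its relative Wdfy3 stood at 53.4 ± 3.18 against 57.9 ± 5.23 CPM. The sorting gene Hgs and the autophagy gene Becn1 had log2 fold changes of -0.13 and -0.10.

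Among 28 genes of early and recycling endosomes, which include Rab proteins and other trafficking genes, 14 lay on each side of 0 around Rab4a. Its close relative Rab4b stood at 6.08 ± 1.02 against 5.11 ± 0.87 CPM (adjusted p = 0.750 by edgeR). The effector Rab11fip1 stood at 3.58 ± 4.96 against 1.10 ± 0.42 CPM (adjusted p = 0.711), with a wide spread in the WT-labelled group, and the membrane remodelling gene Ehd3 had a log2 fold change of -0.29. Of 22 tested genes of insulin signalling and peptide degradation beside Ide, 9 lay above and 13 below 0. There Ace, the angiotensin-converting enzyme gene, stood at 32.7 ± 6.98 against 25.1 ± 3.43 CPM (adjusted p = 0.647), and the natriuretic peptide clearance receptor Npr3 at 31.6 ± 15.6 against 21.3 ± 2.73 CPM. The peptidase gene Thop1 had a log2 fold change of -0.54.

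The 27 genes of the TATA-binding protein, its regulators, TFIID and related factors beside Btaf1 had a median log2 fold change of 0.01. Tbp stood at 10.9 ± 0.83 against 12.4 ± 1.72 CPM (adjusted p = 0.750 by edgeR). The TFIID subunit gene Taf11 and the TBP repressor gene Dr1 had log2 fold changes of -0.16 and -0.12. Of 18 tested genes for fibroblast growth factors, their receptors and their signalling beside Fgfbp3, 10 lay above 0. Fgf16, a heart muscle ligand, stood at 2.85 ± 0.95 against 4.40 ± 2.57 CPM (adjusted p = 0.748 by edgeR). The ligands Fgf18 and Fgf9 had log2 fold changes of 0.40 and 0.37. The 18 tested ectonucleotidase and Golgi sugar supply genes beside Entpd4 had a median of -0.02. There the smallest p belonged to Uggt2, a folding sensor of the endoplasmic reticulum, at 9.82 ± 0.996 against 8.10 ± 0.61 CPM (adjusted p = 0.634). Entpd6 and Entpd7, relatives of Entpd4, had log2 fold changes of 0.21 and -0.42.

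The WAVE complex, Rac and FMRP list beside Cyfip2 had 24 tested genes, 7 above and 17 below 0, with a median log2 fold change of -0.08. Cyfip1, the close relative of Cyfip2, stood at 42.7 ± 6.38 against 39.0 ± 1.46 CPM (adjusted p = 0.785 by edgeR). The actin branching genes Arpc1a and Arpc4 and the RNA-binding gene Fmr1 had log2 fold changes of -0.16, -0.14 and -0.17. The 26 genes of poly(A)-binding protein partners and translation initiation beside Paip1 had a median of 0.01 and ran from -0.17 to 0.13. The helicase gene Eif4a1 stood at 160 ± 21.7 against 142 ± 7.37 CPM (adjusted p = 0.748 by edgeR). The poly(A) nuclease gene Pan2 and the nuclear poly(A)-binding gene Pabpn1 had log2 fold changes of 0.12 and 0.11. Over all tested genes the median was -0.01. Across the 9 lists, 4 genes had an unadjusted p under 0.05, Irf7, Rab11fip1, Ace and Uggt2. With the substrain list described next, which adds Nnt and Mmrn1, it was 6 of 205 tested genes, each counted once. Among all tested genes it was 1145 of 16700.

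A further list held 8 other genes known to vary between C57BL/6 substrains, of which 4 were tested. Besides Nnt, Mmrn1 passed, in the other direction (adjusted p = 8.94e-08 by edgeR). Mmrn1 encodes a protein of platelets and endothelium and held 981, 504, 411, 319 and 502 counts in the WT-labelled libraries and 1, 0, 0, 0 and 1 in the KO-labelled ones. Its level was 15.1 ± 3.77 CPM in the first group, and the endothelial marker sum overlapped, at 503 to 591 against 518 to 591 CPM. Dock2, an immune cell signalling gene, stood at 3.24 ± 2.30 against 2.61 ± 0.79 CPM (adjusted p = 0.877 by edgeR). Crb1, a polarity gene with a C57BL/6N variant, stood at 3.13 ± 1.11 against 2.78 ± 1.05 CPM (adjusted p = 0.925).

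The size of each difference was followed under 20 alternative settings, as a description. The log2 fold change ran from 1.41 to 1.61 for Wdfy1 and from 1.18 to 1.45 for Rab4a. It ran from -0.82 to -0.57 for Ide, from -0.46 to -0.25 for Btaf1, from -0.69 to -0.50 for Fgfbp3, from -0.61 to -0.32 for Entpd4 and from -0.48 to -0.33 for Paip1. The -0.32 is the value of Entpd4 and Entpd4b summed. For Entpd4 alone the smallest difference was -0.41, without WT-labelled library 4. For Cyfip2 it ran from 0.03 to 0.37, with the lowest value when WT-labelled library 1 and KO-labelled library 4 were both left out. No member changed direction in any of the 20.

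**Figure D5:**
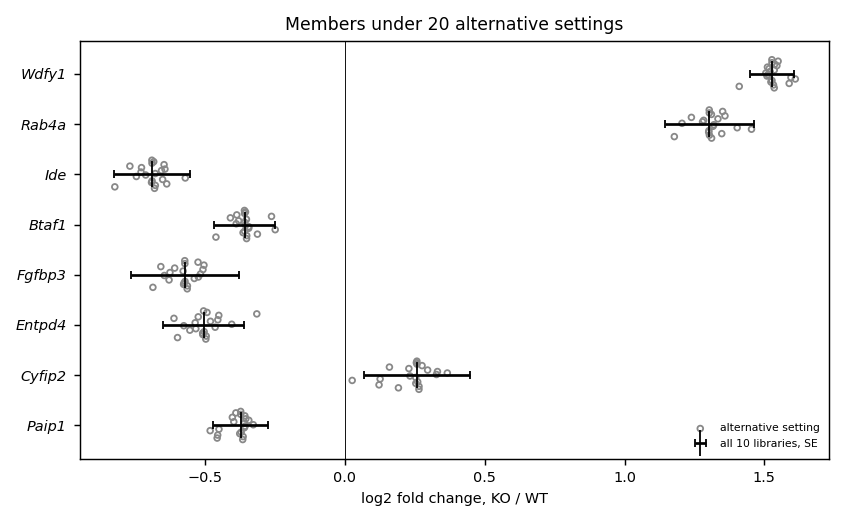
Log2 fold change of each member, KO-labelled over WT-labelled, in the fit of all 10 libraries (black, bar 1 SE) and under 20 alternative settings (open points). Wdfy1 and Rab4a stay above 1, the 5 members with lower means stay below 0, and Cyfip2 runs from 0.03 to 0.37. The Entpd4 point at -0.32 is the sum of Entpd4 and Entpd4b.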

How the data were processed

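Whole hearts of 5 WT-labelled and 5 KO-labelled female mice were measured by bulk RNA sequencing. The authors' deposited table holds expected counts per gene, and every value was already a whole number, so no rounding was done here. Whether the estimated counts were rounded before deposit is not given in the sources used here. The aligner was STAR 2.5.2 with the GRCm39 genome, per the labels' protocols, and the counts come from RSEM 1.3.0, going by the submitters' processing notes. Which annotation release, strand setting and trimming were used is not given in the sources used here. For reads that fit several genes RSEM estimates a division, so values of copies and overlapping genes are uncertain. Of the identifiers, 78168 were found in GENCODE for GRCm39.

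The fit was edgeR 4.0.16 (R 4.3.3), quasi-likelihood F test, over all 10 libraries, with TMM factors, a minimum count of 10, robust dispersions, no covariate and Benjamini-Hochberg adjustment over 16700 genes. Standard errors are approximate, the absolute log2 fold change over the square root of F. CPM used TMM factors on totals of tested genes. Groups came from the genotype label. Libraries of a group differed beyond sampling noise in all 20 pairs (chi-square over degrees of freedom 9.47 to 179). On 3 simulated data sets of these 16700 genes the share recovered was 31.8% for 1.5-fold, 62.4% for 2-fold and 91.0% for 4-fold changes, with 5.59% false calls. BLAST 2.17.0 searched for copies of at least 95% identity over 200 bases.

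The members and lists were chosen with earlier results of these data known. Named are the members, the called and the nearest protein-coding neighbours within 1 Mb, up to 3 genes a list by p, 2 nearest profiles each, Mapk13, Nnt and Mmrn1. Cyfip1, Rpl10, Rpl10-ps6, Ccsap, Mrpl44, Fndc9, Tmem267, Ccl28, Gm53794, Ankrd1, Gm16867 and 2810455O05Rik fall outside that rule and were chosen after their values were seen. Not every gene under the rule is reported here. Alternatives were other scalings, DESeq2 1.42.0, limma 3.58.1 voom with quality weights, 2 other filters, libraries left out, thinned libraries, a table without chromosome 17, Entpd4b summed into Entpd4, and a 5 Mb window.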

Additional observations from a re-analysis of the deposited data

Results flagged for a closer look

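Each of 38 groups of 5 libraries was screened for 1 library far from the other 4, a screen that chance trips in about 1 in 20 groups, and 3 were picked out. All 3 were WT-labelled library 1. It held 12.3 CPM of Wdfy1, where the other 4 of its group lay between 9.77 and 10.3 CPM and the KO-labelled hearts between 28.7 and 31.6 CPM. It held 42.5 CPM of Paip1, where the other 4 lay between 57.04 and 62.0 CPM and the KO-labelled hearts between 39.2 and 46.2 CPM. It held 6.41 CPM of Mapk13, where the other 4 lay between 0.048 and 0.128 CPM. The same library had the highest sums of the atrial, airway, macrophage, adipocyte, skeletal muscle and fibroblast markers, with 445 CPM of 8 macrophage markers against at most 155 CPM in the rest of its group, and their part in these 3 values was not tested.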

How the results depend on the processing

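No alternative reversed a member. The number of genes called, 59, was 129 with DESeq2 and 91 with voom, and from 47 to 75 with each library left out in turn. The number of members called, 2, was 4 with voom, and 4 without WT-labelled library 1 alone or together with KO-labelled library 4. Of all tested genes 0.545%, 0.446% and 0.521% were called in these fits, against 0.353% in the main one. Over the 10 single omissions the number of members called ran from 2 to 4, and Rab4a lost its call with library totals alone. The members were chosen with this comparison known, so nothing is read from their calls. The called genes near the members, 2, were 1 with relative log expression factors, library totals alone, voom, the CPM filter, and without both libraries, and from 1 to 3 with each library left out; Nnt was called in 20 of 20 alternatives and Gm27177 in 5. The called list genes, Nnt and Mmrn1, were 2 throughout. Scaling by library totals alone moved the median log2 fold change of all genes to -0.12. No paired analysis was possible because replicate numbers follow accession order and pair no samples. The simulated fit recovered 31.8% of 1.5-fold changes, and Fgfbp3 rested on 35 to 110 counts per library. The totals limit precision, and no untreated heart shows whether a difference was there before doxorubicin.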
